A study of Rattus norvegicus with 12 samples.

Results

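In Saline-injected rats, laminae I-II of the lumbar dorsal horn (the superficial layer) were compared, gene by gene, with laminae III-VI (the deep layer). All libraries labelled Saline were used, 6 of the 12 in the series: 3 from laminae I-II and 3 from laminae III-VI. The other 6 libraries come from rats injected with CNO and were set beside the Saline rats only at the end. Every rat carried the OT-hM3Dq-mCherry transgene, which places an activating designer receptor and a red fluorescent protein under the oxytocin promoter in oxytocin neurons of the hypothalamus, so the Saline rats are transgenic rats without the receptor's ligand and not wild-type rats. They were 8 weeks old, and the spinal cord was taken 2 h after the s.c. injection. At lumbar segment 5, specimens of each layer were cut by laser microdissection from frozen sections of 12 µm and pooled, and 50 ng of total RNA went into rRNA-depleted, stranded libraries. Libraries with the same number in the 2 layers were treated as 1 rat (n = 3 rats), which the labels do not state, and each rat was its own control in the test.

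The dorsal horn is a stack of layers that receive different sensory fibres. Laminae I and II are the target of fine fibres for pain, temperature and itch, and are packed with small excitatory and inhibitory interneurons, many of which use neuropeptides. The deeper laminae receive large myelinated fibres for touch and body position and hold larger neurons, among them many glycinergic inhibitory neurons. RNA of a cut tissue holds the RNA of all cells in it, so fewer cells of a type and less RNA per cell cannot be told apart in any of the values below.

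The libraries held 5245952 to 5694619 counts in laminae I-II and 6052051 to 7889953 in laminae III-VI. The first principal component carried 69.6% of the variance and separated the layers without overlap. Rat 3 stood somewhat apart in both layers, with the most positive deep score (38.3 against 28.9 and 31.4) and the least negative superficial score (-30.7 against -33.9 and -33.9). Mitochondrial transcripts took 5.08 to 6.36% of the superficial counts and 6.33 to 6.41% of the deep counts. The layer labels fitted known laminar markers in each rat, with Tac1, Tac3, Grp and Lmx1b high in every superficial library and parvalbumin (Pvalb) high in every deep library.

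Of 13213 genes tested, 6156 (46.6%) differed between the layers at an edgeR adjusted p under 0.05, which is what "called" means below. Of all genes tested, 2985 (22.6%) had the higher level in laminae I-II, and laminae III-VI had it in 3171 (24.0%). At an unadjusted p under 0.05 there were 6984 (52.9%). The counts in each direction were near equal but the sizes were not. At least 2-fold differences were called in 675 genes (5.11%) toward laminae I-II and 285 (2.16%) toward laminae III-VI, at least 4-fold in 173 against 30, and at least 8-fold in 58 against 1. Most calls were small, with 3772 of them under 1.5-fold. The 3 libraries of one layer lay wholly above those of the other in 6693 genes (50.7%). Under scaling by library totals in place of TMM factors, the median log2 difference of all genes moved from 0.01 to 0.16, and the calls became 4739 higher in laminae I-II against 1983 higher in laminae III-VI, so small differences depend on the scaling. The plot of all genes shows the longer tail on the superficial side.

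**Figure D1:**
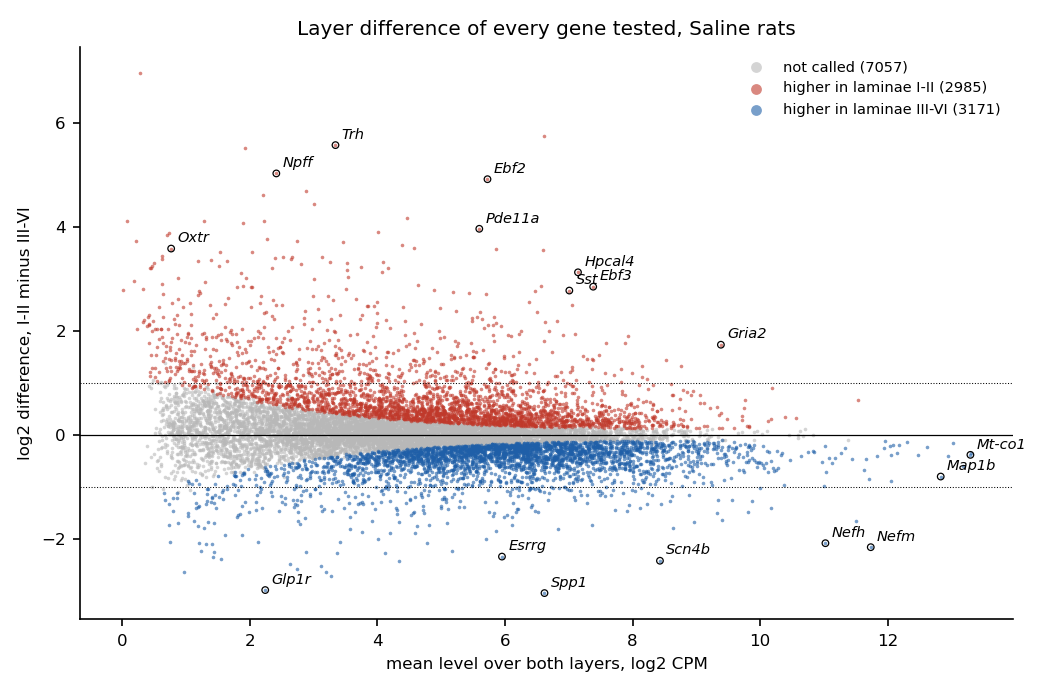
Mean level over both layers (x axis, log2 CPM) against the log2 difference, laminae I-II minus laminae III-VI (y axis), for each of the 13213 genes tested, with 2985 called higher in laminae I-II in red, 3171 called higher in laminae III-VI in blue and 7057 not called in grey. Dotted lines mark 2-fold. Spp1, Scn4b and Nefm lie lowest among the abundant genes, and the genes furthest from 0 lie on the superficial side.

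Neuropeptides of superficial excitatory interneurons showed the most one-sided pattern. Of 17 superficial excitatory markers tested, 16 were higher in laminae I-II, 13 of them at least 2-fold, none was higher in laminae III-VI, and the median log2 difference was 2.75 against 0.01 over all genes. Trh, the thyrotropin-releasing hormone, was at 20.9, 23.8 and 14.8 CPM (the usual depth-scaled count, with TMM factors) in laminae I-II of rats 1, 2 and 3 and at 0, 1.03 and 0.281 CPM in the deep layer (log2 difference 5.57 ± 0.34 SE). Npff, neuropeptide FF, was at 9.02, 13.3 and 8.83 CPM against 0.534, 0.345 and 0 CPM (5.03 ± 0.40). Tac3, which encodes neurokinin B in rats, was at 48.7, 44.2 and 32.3 CPM against 2.40, 1.55 and 2.81 CPM (4.17 ± 0.18). These peptides were close to absent from the deep cut in every rat, while the 3 superficial libraries varied by less than 2-fold. Next came Nmu, neuromedin U (log2 difference 3.72 ± 0.21), and Grp, gastrin-releasing peptide of the itch pathway (3.29 ± 0.27).

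A second tier of peptides was lower in laminae III-VI but clearly present there. Tac1, which encodes substance P, was at 163, 170 and 130 CPM in the superficial layer and at 25.6, 25.5 and 17.0 CPM in the deep layer (log2 difference 2.77 ± 0.07 SE). Somatostatin (Sst) was at 228, 262 and 185 CPM against 36.8, 37.1 and 24.7 CPM (2.77 ± 0.07), and neurotensin (Nts) at 134, 166 and 128 CPM against 27.9, 25.5 and 18.8 CPM (2.56 ± 0.09). In each of these 3 genes rat 3 was lowest in both layers, and the layers did not overlap. Calbindin (Calb1) differed by 2.10 ± 0.08, the peptide gene Adcyap1 by 1.49 ± 0.09 and cholecystokinin (Cck) by only 0.52 ± 0.16, with overlap between the layers. Ucn3, urocortin 3, had 16, 13 and 13 counts in the superficial libraries and 0 in all 3 deep libraries, which makes it at least 18.3-fold higher in laminae I-II, with the floor set at 3 counts over the deep layer. The remaining marker, calretinin (Calb2), did not pass (log2 difference -0.18, 95% interval -0.46 to 0.10). It stood at 298, 311 and 273 CPM in the superficial layer and at 277, 245 and 515 CPM in the deep layer, so its direction hung on rat 3. Without rat 3 it was called higher in the superficial layer (0.22, edgeR adjusted p = 0.0074), and without rat 1 or rat 2 it was called higher in the deep layer (-0.32 and -0.43).

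**Figure D2:**
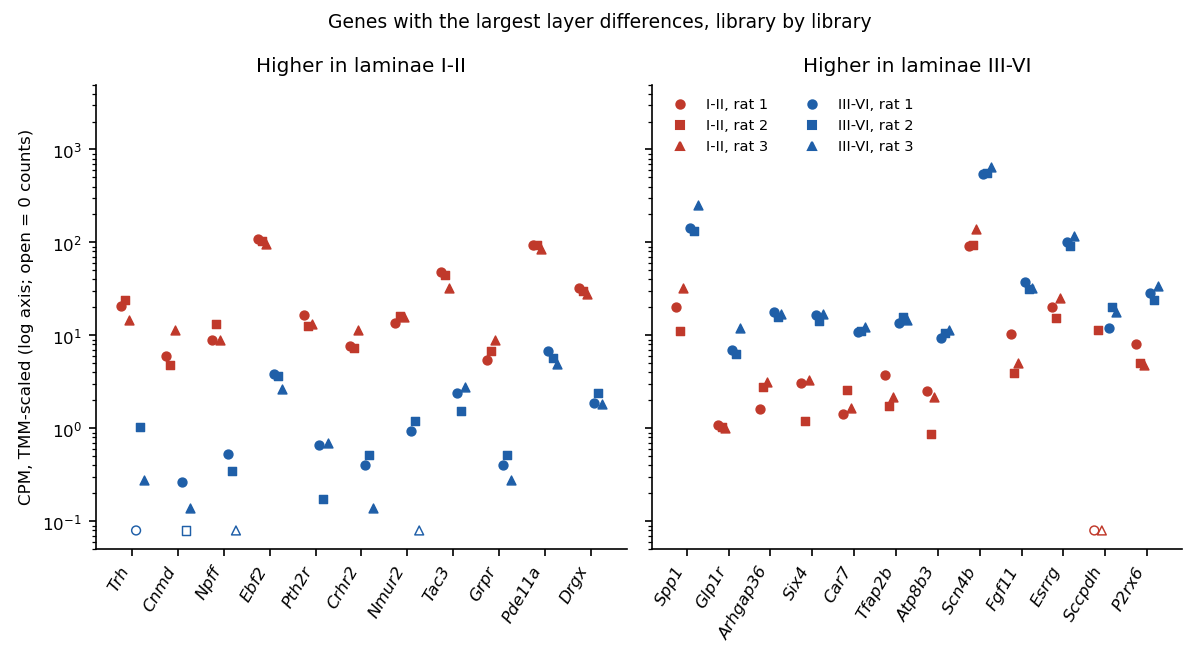
CPM on a log axis of genes with the largest called difference in each direction, each point 1 library (red: laminae I-II, blue: laminae III-VI, circle, square and triangle: rats 1, 2 and 3, open symbols: 0 counts, drawn at the bottom). Genes were chosen for layers without overlap and at least 5 CPM in the higher layer, so the lack of overlap is a condition and not a result. Sccpdh is the gene whose superficial libraries are most unequal (0, 11.6 and 0 CPM).

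Transcription factors of the excitatory lineage went the same way in 17 of 23 tested members, against 2 higher in laminae III-VI. The 3 early B cell factors, helix-loop-helix proteins that bind DNA as dimers, were among them. Ebf2 (chr15:43905099-44103742, rn6) was at 108, 103 and 96.8 CPM in the superficial layer and at 3.87, 3.62 and 2.67 CPM in the deep layer (log2 difference 4.92 ± 0.12 SE). Ebf3 (chr1:209523157-209641123) was at 308, 303 and 267 CPM against 41.1, 45.7 and 35.8 CPM, and Ebf1 (chr10:23661013-24050209) at 173, 173 and 154 CPM against 24.3, 24.1 and 20.8 CPM, and both differed by 2.85. The superficial libraries lay close together for all 3 genes, and rat 3 was lowest in both layers. Drgx, a paired-type homeodomain factor of dorsal horn excitatory neurons, differed by 3.90 ± 0.18, Tlx3 by 3.21 ± 0.56, Lmx1b by 2.47 ± 0.16 and Lbx1, which is used by several dorsal horn classes, by 1.52 ± 0.17. One of the 2 deep calls was Meis2 (log2 difference -0.56), and the other is not reported here. Of 10 members with too few counts for the test, several leaned to the deep layer. Barhl2 had 0, 0 and 1 counts in the superficial layer against 17, 12 and 12, Isl1 1, 1 and 2 against 21, 7 and 9, and Lhx2 0, 1 and 0 against 14, 6 and 4.

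The promoters of 2 superficial genes, Drgx and the phosphodiesterase gene Pde11a, are shown because each holds a motif of a factor class named above. Ebf1, Ebf2 and Ebf3 were higher in laminae I-II, while homeodomain factors went both ways, with Drgx superficial and Meis2 deep. A link between these factors and the promoters was not tested. They are the 250 bases before the RefSeq start in the GRCr8 assembly, Drgx at chr16:7860907-7861156 on the plus strand and Pde11a at chr3:81704398-81704647 on the minus strand, with the motif in capitals.
Drgx: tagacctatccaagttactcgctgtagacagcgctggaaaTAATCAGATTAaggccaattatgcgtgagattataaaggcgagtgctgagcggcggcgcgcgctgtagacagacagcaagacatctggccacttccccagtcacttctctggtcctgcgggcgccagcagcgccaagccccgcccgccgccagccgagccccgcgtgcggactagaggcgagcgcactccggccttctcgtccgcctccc
Pde11a: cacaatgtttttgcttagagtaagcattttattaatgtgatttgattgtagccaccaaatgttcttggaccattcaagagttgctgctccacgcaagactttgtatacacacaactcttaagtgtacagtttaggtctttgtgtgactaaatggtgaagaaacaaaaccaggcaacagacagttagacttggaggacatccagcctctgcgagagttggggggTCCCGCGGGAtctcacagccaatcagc
The capitals in Drgx match the paired homeodomain motif TAATNNNATTA, and those in Pde11a the EBF motif TCCCNNGGGA. Both motifs read the same on either strand and neither contains the other. Motifs were counted on either strand in promoters of 300 bases, 250 before and 50 after the start. The EBF motif was in 6 of 453 promoters (1.32%) of genes at least 2-fold higher in laminae I-II, in 1 of 215 (0.465%) of those at least 2-fold higher in laminae III-VI and in 0.847% of the 9677 tested genes with a promoter. The homeodomain motif was in 0.221% of the superficial genes, which is Drgx alone, and in 0.0827% of the tested genes. Over all 33469 promoters of that length, the EBF motif was in 0.834%. The homeodomain motif was in 0.406% of them, more than among the superficial genes. These are counts of letters and say nothing of binding.

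Receptors for neuropeptides were also mostly superficial, with 22 of 36 tested members higher in laminae I-II, 5 higher in laminae III-VI and a median log2 difference of 0.76. Crhr2, the receptor for urocortins, was at 7.76, 7.42 and 11.3 CPM in the superficial layer and at 0.400, 0.517 and 0.140 CPM in the deep layer (log2 difference 4.61 ± 0.39 SE). Nmur2, the neuromedin U receptor, was at 13.7, 16.2 and 16.0 CPM against 0.934, 1.21 and 0 CPM (4.43 ± 0.35), and Grpr, the gastrin-releasing peptide receptor, at 5.41, 6.73 and 8.83 CPM against 0.400, 0.517 and 0.281 CPM (4.08 ± 0.39). Ligand and receptor were thus higher in the same layer for the Ucn3, Nmu and Grp systems. Pth2r, a class B peptide receptor, followed the same pattern (4.69 ± 0.30). Other superficial receptors were Npy1r (log2 difference 2.77 ± 0.11), the somatostatin receptor Sstr2 (2.66 ± 0.20) and the galanin receptor Galr1 (2.43 ± 0.12). Tacr3, the neurokinin B receptor, differed by 1.01 ± 0.15, but Tacr1, the substance P receptor, stood at 8.30 to 11.6 CPM in the superficial layer and 9.07 to 11.4 CPM in the deep layer (0.02, 95% interval -0.32 to 0.36). Among opioid receptors, Oprm1 was higher in laminae I-II (0.70 ± 0.10), Oprd1 higher in laminae III-VI (-1.51 ± 0.40), Oprk1 did not pass (0.33, 95% interval 0.03 to 0.63, edgeR adjusted p = 0.063) and Oprl1 gave -0.01 (95% interval -0.14 to 0.12). On the deep side, Glp1r, the receptor for glucagon-like peptide 1, was at 1.08, 1.04 and 1.00 CPM in the superficial layer and at 6.94, 6.38 and 11.9 CPM in the deep layer (-2.99 ± 0.31), and the cholecystokinin receptor Cckbr differed by -1.17 ± 0.21.

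The oxytocin receptor and the vasopressin V1a receptor lay in opposite layers. Oxtr (chr4:144403358-144416116, rn6) was at 2.53, 2.76 and 4.17 CPM in the superficial layer and at 0.133, 0.345 and 0.281 CPM in the deep layer (log2 difference 3.58 ± 0.50 SE, edgeR adjusted p = 5.8e-06). Its level is low even in the superficial layer, and the layers did not overlap. Avpr1a, which also binds oxytocin with lower affinity, was at 3.43, 1.38 and 2.67 CPM against 4.27, 3.97 and 4.49 CPM (-0.77 ± 0.31, edgeR adjusted p = 0.045). The Avpr1a call is marginal and was lost in 8 of 12 alternative settings, among them DESeq2 (adjusted p = 0.27) and the fit without the rat block (edgeR adjusted p = 0.060). Oxt itself had 2 counts in 1 deep library and 0 in the other 5 libraries.

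Markers of inhibitory neurons were divided between the layers. Pax2, the general inhibitory factor of the dorsal horn, gave 16.4, 23.6 and 19.7 CPM in the superficial layer against 17.3, 21.2 and 16.6 CPM (log2 difference 0.11, 95% interval -0.14 to 0.36). Gad2, a GABA-synthesizing enzyme, stood at 332 to 360 CPM against 301 to 374 CPM (-0.02, 95% interval -0.13 to 0.09), although with library totals it was called slightly higher in laminae I-II (0.14, edgeR adjusted p = 0.041). Gad1, the second enzyme, was higher in laminae I-II at 235, 234 and 197 CPM against 166, 190 and 149 CPM (0.40 ± 0.05). The vesicular transporter Slc32a1, shared by GABA and glycine, was higher in laminae III-VI at 129, 174 and 153 CPM against 86.2, 95.1 and 88.3 CPM (-0.75 ± 0.06). The largest difference in this group belonged to Slc6a5, the glycine transporter of glycinergic terminals, at 329, 317 and 356 CPM in the superficial layer and 879, 949 and 1021 CPM in the deep layer (-1.51 ± 0.05). In all, 8 of 12 genes of GABA and glycine synthesis and transport were higher in laminae III-VI and 3 in laminae I-II, and with library totals these were 5 and 4.

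A list of inhibitory neuron peptides and markers had 14 members tested, of which 8 were superficial and 2 deep. It also holds Sst, counted above with the excitatory markers, and Nrgn and Spp1, which do not mark inhibitory neurons alone. These counts are therefore not of inhibitory neurons only. The dynorphin gene Pdyn (log2 difference 1.99 ± 0.11), galanin (Gal, 1.62 ± 0.16), nociceptin (Pnoc, 1.58 ± 0.16), enkephalin (Penk, 0.97 ± 0.05) and Nos1, the neuronal nitric oxide synthase (0.77 ± 0.07), were higher in laminae I-II. Pvalb, a calcium buffer of fast-firing neurons, was at 11.7, 13.8 and 12.2 CPM in the superficial layer and at 54.8, 66.0 and 57.7 CPM in the deep layer (-2.24 ± 0.10). Spp1, osteopontin, was the only gene called at least 8-fold higher in the deep layer, at 20.0, 11.2 and 32.7 CPM against 141, 133 and 252 CPM (-3.05 ± 0.09), with rat 3 highest in both layers. Among inhibitory lineage factors, Gbx1 (2.73 ± 0.45), Lhx5 (1.56 ± 0.24), Pax8 (1.26 ± 0.13) and Sall3 (1.23 ± 0.08) were superficial, and Tfap2b (-2.52 ± 0.23), Foxp2 (-1.93 ± 0.33) and Nr4a2 (-0.99 ± 0.32) were deep. The Nr4a2 call was lost by DESeq2 and without rat 2. Otp had 0 counts in laminae I-II and 6, 5 and 5 counts in laminae III-VI, at least 4.07-fold higher, with the floor set at 3 counts over the superficial layer. En1, a marker of ventral inhibitory neurons, also stood low with 0, 1 and 0 counts against 16, 8 and 28. Npy, a peptide of superficial inhibitory neurons, had 3 counts in 1 deep library and 0 elsewhere, so its layer could not be read.

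The glutamate vesicular transporter Slc17a6, used by most dorsal horn excitatory neurons, was at 369, 367 and 348 CPM in the superficial layer and at 364, 336 and 374 CPM in the deep layer (log2 difference 0.01, 95% interval -0.09 to 0.12). Of 10 tested genes of glutamate transport and supply, Slc17a6 included, 7 were higher in the deep layer and none in the superficial layer, among them the glutaminase Gls2 (-1.30 ± 0.08 SE) and the aspartate aminotransferase Got1 (-0.79 ± 0.05). With library totals 2 members were called higher in laminae I-II, Slc17a6 among them (0.17).

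Among the glutamate receptor lists, that of AMPA and kainate receptors stood out in the share of members called. Of 18 AMPA and kainate receptor genes and their auxiliary subunits, 13 were superficial and 5 deep, and none was left uncalled. Gria2, the subunit that keeps AMPA receptors from passing calcium, was at 1073, 1063 and 945 CPM in the superficial layer and at 327, 324 and 279 CPM in the deep layer (log2 difference 1.73 ± 0.05 SE). Gria1 followed it (1.00 ± 0.06), whereas Gria3 (-0.61 ± 0.05) and Gria4 (-0.53 ± 0.05) were higher in laminae III-VI. The auxiliary subunits were split too, with Cnih2 superficial (1.58 ± 0.13) and Cacng2, stargazin, deep at 97.8, 103 and 97.2 CPM against 38.6, 44.0 and 36.5 CPM (-1.32 ± 0.07). Among NMDA receptor subunits, Grin2b (0.79 ± 0.06) and Grin3a (0.76 ± 0.08) were higher in laminae I-II, the obligatory subunit Grin1 was slightly higher in laminae III-VI (-0.26 ± 0.05, not called with library totals), and Grin2a, Grin2c and Grin2d did not pass. Of 8 metabotropic receptors 4 were not called, and of 6 NMDA receptor subunits 3 were not. Both lists were thus near the 46.6% called over all genes. Grm2 (1.79 ± 0.34), Grm5 (1.24 ± 0.06) and Grm7 (0.87 ± 0.07) were superficial, and Grm4 was deep (-0.42 ± 0.15). The Grm4 call was lost with library totals, by DESeq2, without the rat block and without rat 2.

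Subunits of inhibitory receptors were also found on both sides. The adult glycine receptor pair Glra1 and Glrb was deep, with Glra1 at 260, 254 and 285 CPM in the superficial layer and at 460, 501 and 567 CPM in the deep layer (log2 difference -0.93 ± 0.05 SE) and Glrb at -0.76 ± 0.05. Glra4 (2.04 ± 0.45 SE) and Glra3 were superficial. Glra3, the subunit known from mice as a target of prostaglandin E signalling in inflammatory pain, stood at 34.8, 35.9 and 34.0 CPM against 13.1, 10.2 and 7.87 CPM (1.75 ± 0.13). Among 13 GABA-A receptor subunits, 3 were higher in laminae I-II, led by Gabrg3 (1.28 ± 0.15) and Gabra4 (0.71 ± 0.12), and 4 in laminae III-VI, among them Gabrb2 (-0.92 ± 0.10), near the shares over all genes.

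**Figure D3:**
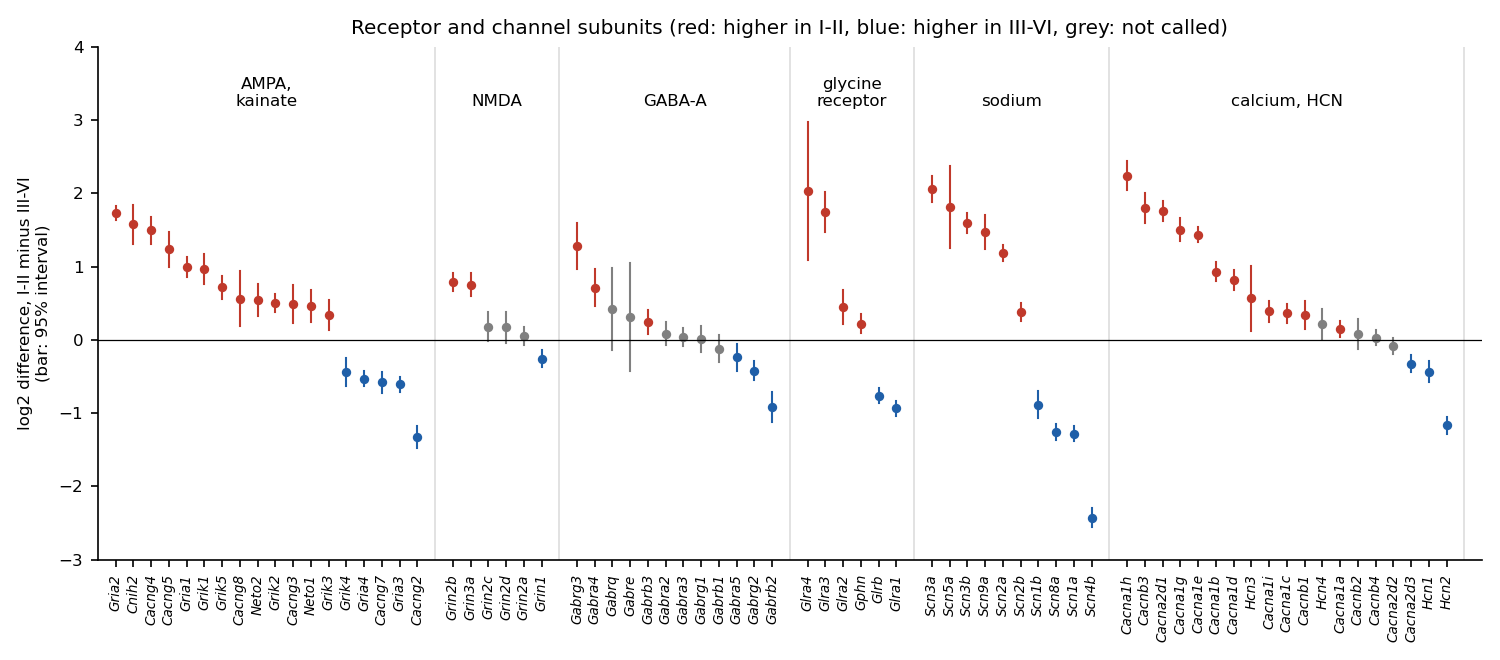
Log2 difference, laminae I-II minus laminae III-VI (y axis), with its 95% interval for tested subunits of 6 receptor and channel families, in red where called higher in laminae I-II, blue where called higher in laminae III-VI and grey where not called. Sodium channels and AMPA and kainate receptors hold no grey point, and Scn4b (-2.43) is the lowest value of all 6 families.

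Every tested voltage-gated sodium channel gene was called, 6 of 10 in laminae I-II and the other 4 in laminae III-VI. Scn3a was at 87.9, 84.4 and 75.0 CPM in the superficial layer and at 23.1, 19.5 and 16.7 CPM in the deep layer (log2 difference 2.06 ± 0.09 SE), and Scn9a, the channel of human pain insensitivity, differed by 1.47 ± 0.11 and Scn2a by 1.19 ± 0.05. Scn1a was deep at 1316, 1258 and 1409 CPM against 561, 480 and 605 CPM (-1.28 ± 0.05), as was Scn8a (-1.26 ± 0.05). The beta subunits parted most. Scn4b, whose protein enables the resurgent current of rapidly firing neurons, was at 92.6, 94.2 and 139 CPM against 542, 558 and 642 CPM (-2.43 ± 0.06), while Scn3b was superficial (1.60 ± 0.06).

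Potassium channels were called about equally in each direction, 18 of 46 on the superficial side and 17 on the deep side. The shares over all genes were 22.6% and 24.0%. The A-type channel Kcnd3, which delays spikes, was at 155, 156 and 143 CPM in the superficial layer and at 45.8, 45.9 and 39.2 CPM in the deep layer (log2 difference 1.80 ± 0.06 SE). The deep members included channels of myelinated axons. The juxtaparanodal channels Kcna1 (-1.45 ± 0.06) and Kcna2 (-1.41 ± 0.05) and their subunit Kcnab2 (-1.06 ± 0.05) were lower in laminae I-II by like amounts. Kcns3 had the largest difference (-2.08 ± 0.12). Calcium channels were mostly superficial, with 12 of 19 calcium and HCN channel genes higher in laminae I-II. The T-type channels Cacna1h (2.24 ± 0.10) and Cacna1g (1.51 ± 0.07), the R-type channel Cacna1e (1.44 ± 0.05), the beta subunit Cacnb3 (1.80 ± 0.10) and Cacna2d1, the binding site of gabapentin (1.76 ± 0.07), led them. Cacna2d1 was at 311, 279 and 295 CPM in the superficial layer and at 97.9, 91.2 and 73.5 CPM in the deep layer. The pacemaker channel Hcn2 was deep at 263, 281 and 298 CPM against 126, 116 and 133 CPM (-1.17 ± 0.05).

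Genes of large axons and fast transmitter release held some of the most abundant deep genes, and 15 of 20 were higher in laminae III-VI, with a median log2 difference of -1.08. The neurofilament subunit Nefm was at 1277, 978 and 1494 CPM in the superficial layer and at 5506, 4919 and 6256 CPM in the deep layer (log2 difference -2.17 ± 0.05 SE). Nefh was at 819, 652 and 914 CPM against 3356, 3013 and 3732 CPM (-2.09 ± 0.05), and Nefl differed by -1.66 ± 0.05. All 3 were highest in rat 3 in each layer. The microtubule proteins Map1a (-0.90 ± 0.05) and Map1b (-0.81 ± 0.05) were among the genes with the largest difference in CPM. The 5 exceptions on the list were Doc2b, Syt1, Vamp2, Syn2 and Cplx2. The calcium sensor Syt1 was at 658, 605 and 590 CPM in the superficial layer against 271, 247 and 222 CPM (1.33 ± 0.05), while its fast-release relative Syt2 was at 234, 204 and 275 CPM against 705, 762 and 813 CPM (-1.68 ± 0.06).

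Related genes thus lay in opposite layers, which ratios of counts within 1 library show without any scaling. The 12 pairs were picked after their values were seen and are a description. In laminae I-II the Syt1 to Syt2 ratio was 2.81, 2.96 and 2.15 in rats 1, 2 and 3, and in laminae III-VI it was 0.385, 0.325 and 0.273, a difference of 8.07-fold. The ratio of Vamp2 to Vamp1 was 4.76-fold higher in laminae I-II, that of Cplx2 to Cplx1 3.73-fold, Scn2a to Scn1a 5.53-fold, Scn3b to Scn4b 16.5-fold, Gria2 to Gria4 4.79-fold, Glra3 to Glra1 6.56-fold and Gad1 to Slc32a1 2.21-fold. Rat 3 gave the lowest ratio in 11 of 12 pairs on the superficial side and in 11 of 12 on the deep side, so its 2 libraries leaned to the deep profile together.

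**Figure D4:**
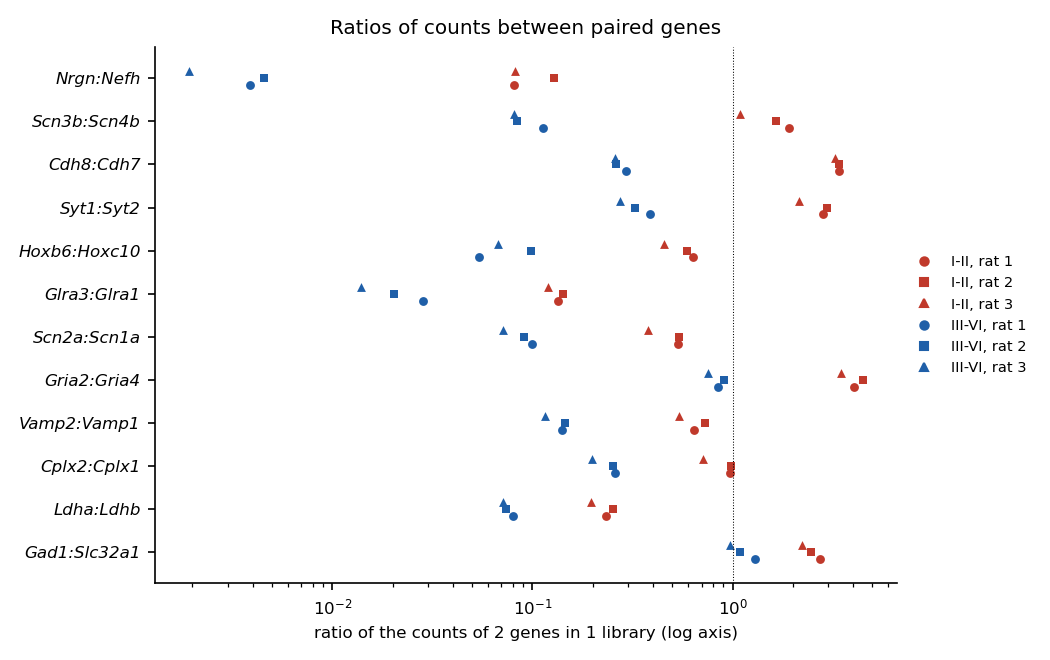
Ratio of the counts of 2 genes in 1 library (x axis, log scale) for the 12 pairs named on the y axis, ordered by the fold between the layers (red: laminae I-II, blue: laminae III-VI, circle, square and triangle: rats 1, 2 and 3). In every pair the layers do not overlap, and the triangles of rat 3 lie furthest to the left in most pairs.

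Perineuronal net genes build the matrix around fast-firing neurons. They were called higher in laminae III-VI in 5 of 12 tested members and in laminae I-II in 2, beside 24.0% and 22.6% of all genes. The link protein Hapln1 was at 32.1, 24.2 and 38.7 CPM in the superficial layer and at 92.6, 78.8 and 113 CPM in the deep layer (log2 difference -1.59 ± 0.08 SE), aggrecan (Acan) at 19.7, 20.5 and 24.5 CPM against 51.6, 54.1 and 63.5 CPM (-1.39 ± 0.09), and Hapln4 differed by -1.32 ± 0.07. Tenascin C (Tnc) was higher in laminae I-II (1.36 ± 0.24).

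Energy metabolism leaned to the deep layer by small and even steps. All 31 nuclear oxidative phosphorylation genes tested were higher in laminae III-VI, with log2 differences from -0.90 to -0.26 and a median of -0.54, and so were all 13 mitochondrially encoded genes, with a median of -0.34. With library totals these counts were 29 of 31 and 7 of 13, with none toward laminae I-II. Ndufs1 of complex I was at 186, 184 and 196 CPM in the superficial layer and at 336, 320 and 328 CPM in the deep layer (log2 difference -0.79 ± 0.05 SE), and Cox4i1 of complex IV differed by -0.62 ± 0.05. Of 16 glycolysis genes 14 were deep, among them Ldhb, the lactate dehydrogenase subunit of oxidative tissue, at 666, 725 and 712 CPM against 391, 405 and 390 CPM (-0.83 ± 0.05). Pfkl was not called (-0.13 ± 0.06). Ldha, the subunit of glycolytic tissue, was the 1 gene called in the other direction, at 90.9, 102 and 76.6 CPM in the superficial layer against 53.0, 53.5 and 50.8 CPM (0.77 ± 0.07).

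Estrogen-related receptors and a coactivator, known as regulators of mitochondrial genes, were also higher in the deep layer. A link between them and the mitochondrial genes above was not tested. Esrrg (chr13:106463368-106683436, rn6), an estrogen-related receptor, was at 20.0, 15.5 and 25.5 CPM in the superficial layer and at 102, 91.7 and 117 CPM in the deep layer (log2 difference -2.35 ± 0.09 SE). Its relatives Esrrb (-2.10 ± 0.39) and Esrra (-0.85 ± 0.11) and the coactivator Ppargc1a, at 50.0, 50.7 and 53.2 CPM against 97.5, 89.7 and 95.5 CPM (-0.88 ± 0.07), were called as well, and Ppargc1b did not pass (-0.25 ± 0.11). The promoters of 2 deep genes named above are shown for the response element of these receptors, AAGGTCA, in capitals as it stands on either strand. Both are the 250 bases before the RefSeq start in GRCr8, Hcn2 at chr7:10639458-10639707 on the minus strand and Hapln1 at chr2:22366717-22366966 on the plus strand.
Hcn2: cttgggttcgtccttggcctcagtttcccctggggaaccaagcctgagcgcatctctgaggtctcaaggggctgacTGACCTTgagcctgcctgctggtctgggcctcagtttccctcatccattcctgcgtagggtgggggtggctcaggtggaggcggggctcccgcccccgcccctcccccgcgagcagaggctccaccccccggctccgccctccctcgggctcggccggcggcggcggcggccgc
Hapln1: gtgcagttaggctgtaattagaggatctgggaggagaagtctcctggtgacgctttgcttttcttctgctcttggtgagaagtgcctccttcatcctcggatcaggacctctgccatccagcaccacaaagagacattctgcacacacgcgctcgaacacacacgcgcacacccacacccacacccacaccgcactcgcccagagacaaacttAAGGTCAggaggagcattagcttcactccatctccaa
The element was counted in the same 300-base promoters, 50 bases longer than the stretches printed. It was in 15 of 215 (6.98%) of genes at least 2-fold higher in laminae III-VI and in 9 of 453 (1.99%) of those at least 2-fold higher in laminae I-II. It was in 2.71% of the 9677 tested genes with a promoter and in 4.61% of all 33469 promoters of that length. A match of 7 letters is a description and shows neither binding nor which factor would bind.

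Second-messenger genes were mixed in direction, with some members far from the rest. Pde11a, a phosphodiesterase of cyclic AMP and cyclic GMP, was at 94.5, 94.4 and 84.1 CPM in the superficial layer and at 6.81, 5.69 and 4.92 CPM in the deep layer (log2 difference 3.96 ± 0.11 SE). The 29 cyclic nucleotide enzymes together had 9 superficial calls, 8 deep calls and a median of -0.03. Over all genes 22.6% were superficial and 24.0% deep. The adenylyl cyclases parted, with Adcy1 superficial (0.81 ± 0.05) and Adcy2 (-0.69 ± 0.08) and Adcy9 (-0.63 ± 0.06) deep. Among calcium-binding proteins, Hpcal4 was at 257, 268 and 236 CPM against 31.9, 34.1 and 21.9 CPM (3.12 ± 0.08) and Necab1 was also superficial (2.49 ± 0.09), and Cabp1 (-1.01 ± 0.07) and Ncs1 (-0.96 ± 0.05) were deep. Of 9 protein kinase C isoforms 5 were superficial and 1, Prkch (-0.60 ± 0.22), was deep. The Prkch call was lost with library totals, by DESeq2, without the rat block and without rat 1 or rat 3. The classical isoform Prkca was among the superficial ones (0.93 ± 0.06). The postsynaptic protein neurogranin (Nrgn) was at 66.0, 83.8 and 74.6 CPM in the superficial layer and at 12.9, 13.8 and 7.16 CPM in the deep layer (2.73 ± 0.13).

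Receptors for the descending monoamine systems and for acetylcholine were higher in laminae I-II in 12 of 25 tested members and higher in laminae III-VI in 6. Over all genes these shares were 22.6% and 24.0%, so the deep calls were near the share of all genes. The muscarinic receptor Chrm5 was at 11.2, 11.2 and 12.0 CPM in the superficial layer and at 0.801, 1.55 and 0.983 CPM in the deep layer (log2 difference 3.38 ± 0.27 SE), and Chrm3 differed by 1.41 ± 0.11. The alpha-2 adrenoceptors were superficial, Adra2b by 3.36 ± 0.40 and Adra2a, the spinal target of clonidine, by 1.04 ± 0.12 at 22.9, 25.2 and 24.8 CPM against 11.5, 12.2 and 11.8 CPM. On the deep side stood the serotonin receptor Htr2c, at 155, 131 and 151 CPM against 336, 296 and 319 CPM (-1.13 ± 0.05), the alpha-1 adrenoceptor Adra1a (-0.78 ± 0.15) and the muscarinic receptor Chrm2 (-0.75 ± 0.09).

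Immediate early genes were called in laminae I-II in 7 of 17 tested members and in laminae III-VI in 1, beside 22.6% and 24.0% of all genes. With 9 members not called, the share called in either direction was near the 46.6% over all genes. Egr1 was at 54.8, 58.7 and 55.3 CPM in the superficial layer and at 29.4, 32.6 and 25.3 CPM in the deep layer (log2 difference 0.96 ± 0.09 SE), Egr3 differed by 2.02 ± 0.34 and Nr4a1 by 1.17 ± 0.18. Fos, the marker of recent activity most used in this tissue, was at 21.3, 26.7 and 20.7 CPM against 21.6, 30.7 and 24.7 CPM (-0.16, 95% interval -0.39 to 0.06). The 1 deep call was Nr4a2, which is also an inhibitory lineage factor, and it was lost by DESeq2 and without rat 2. Egr2 differed by 3.87 ± 0.58, but it is a Schwann cell gene too, and Schwann cell markers were higher in the superficial libraries.

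Hox genes, which set the position of a cell along the body, differed between layers of the same segment. All 7 tested genes of the HoxB cluster, Hoxb3 to Hoxb9, were higher in laminae I-II, by log2 differences of 0.95 to 1.59. Hoxb6 was at 29.8, 29.8 and 21.5 CPM in the superficial layer and at 6.00, 11.9 and 9.27 CPM in the deep layer. Hoxc8 (-0.62 ± 0.08), Hoxd9 (-0.94 ± 0.15), Hoxc10 (-1.36 ± 0.07) and Hoxd10 (-1.85 ± 0.16) were higher in laminae III-VI. Hoxc10 was at 46.7, 50.2 and 47.3 CPM against 112, 121 and 138 CPM, so that the Hoxb6 to Hoxc10 ratio was 7.85-fold higher in laminae I-II. Adhesion and guidance genes were called in laminae I-II in 30 of 61 members and in laminae III-VI in 18, beside 22.6% and 24.0% of all genes. Sema5a (1.89 ± 0.06), Cdh8 (1.89 ± 0.07) and Tenm3 (1.76 ± 0.05) were superficial and Cdh7 was deep (-1.73 ± 0.07). The Cdh8 to Cdh7 ratio was 3.25 to 3.40 in laminae I-II and 0.258 to 0.294 in laminae III-VI.

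Lists of glial genes held few large differences. Of 22 central myelin and oligodendrocyte genes 13 were higher in laminae III-VI and 1 in laminae I-II, with a median log2 difference of only -0.17. With library totals this became 4 and 3 with a median of -0.01, so no direction is given for the group. Mbp was at 4517, 5231 and 4946 CPM in the superficial layer and at 6029, 6924 and 6372 CPM in the deep layer (-0.40 ± 0.05 SE). Astrocyte genes were split, 8 superficial and 7 deep of 18, with Gfap at 990.3, 1057 and 1140.2 CPM against 574, 622 and 838 CPM (0.66 ± 0.06), Aqp4 at 0.32 ± 0.05 and the D-serine transporter Slc7a10 on the deep side (-1.05 ± 0.10). Of 11 microglia genes 9 were superficial and none was deep (median 0.62), with Csf1r at 94.7, 101 and 91.6 CPM against 60.3, 67.2 and 57.7 CPM (0.64 ± 0.06), but 2 were called by DESeq2, 5 without the rat block and 6 without rat 3. Of 17 endothelial and mural cell genes 8 were deep and none superficial, where library totals gave 5 and 2, and the smooth muscle genes Myh11 (-1.49 ± 0.11) and Acta2 (-1.47 ± 0.20) led.

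Markers of tissue that borders the dorsal horn moved with the layer and with the rat. Genes listed for Schwann cells, which accompany entering roots, were higher in the superficial cut in 7 of 9 tested members. The 11 listed genes summed to 768 to 1142 CPM in the superficial layer and 538 to 608 CPM in the deep layer. This sum does not measure peripheral myelin alone. Mal is also on the central myelin list, and Drp2 by itself had a deep mean of 59.6 CPM. Prx, periaxin, was at 20.7, 15.9 and 36.2 CPM against 2.14, 2.24 and 3.37 CPM (log2 difference 3.23 ± 0.18 SE), and Pmp22 differed by 1.99 ± 0.13, each highest in laminae I-II of rat 3. In the CNO rats the superficial mean of Pmp22 was lower, at 36.6 CPM, and its layer difference was 0.30. Fibroblast and meningeal genes were called in laminae I-II in 7 of 14 members, beside 22.6% of all genes. However, their sum was 283, 311 and 727 CPM in the superficial layer of rats 1, 2 and 3 against 223 to 274 CPM in the deep layer. Col1a1 was at 27.6, 39.0 and 142 CPM against 13.1, 20.0 and 24.2 CPM (1.76 ± 0.19), and without rat 3 the list median fell to 0.43 from 0.66 and the matrix gene Mgp turned from 0.59 to -0.14. Sums of primary sensory neuron markers were 8.62 to 15.5 CPM in all libraries, and those of motor neuron and cholinergic markers were 218 to 234 CPM in the superficial layer and 225 to 239 CPM in the deep layer. Of the latter, Chat, the acetylcholine-synthesizing enzyme, was deep at 2.80 to 4.31 CPM against 0.173 to 0.833 CPM (-2.65 ± 0.47), and the receptor gene Ret was superficial (1.14 ± 0.07). The part of these tissues in the other layer differences was not tested.

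Many genes gave differences near 0, and for 1649 of the 13213 tested genes (12.5%) the 95% interval of the difference lay inside 1.2-fold. Beside Slc17a6, Gad2 and Oprl1 these include the cytoskeletal gene Actb, at 1514, 1573 and 1539.9 CPM in the superficial layer and 1430.5, 1625 and 1591 CPM in the deep layer (log2 difference 0.00, 95% interval -0.10 to 0.09), and B2m (-0.03, 95% interval -0.15 to 0.08). Other common reference genes were not level. Gapdh (-0.35 ± 0.08 SE), Pgk1 (-0.69 ± 0.05) and Sdha (-0.62 ± 0.05) were higher in laminae III-VI, though Gapdh was not called with library totals or by DESeq2.

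**Figure D5:**
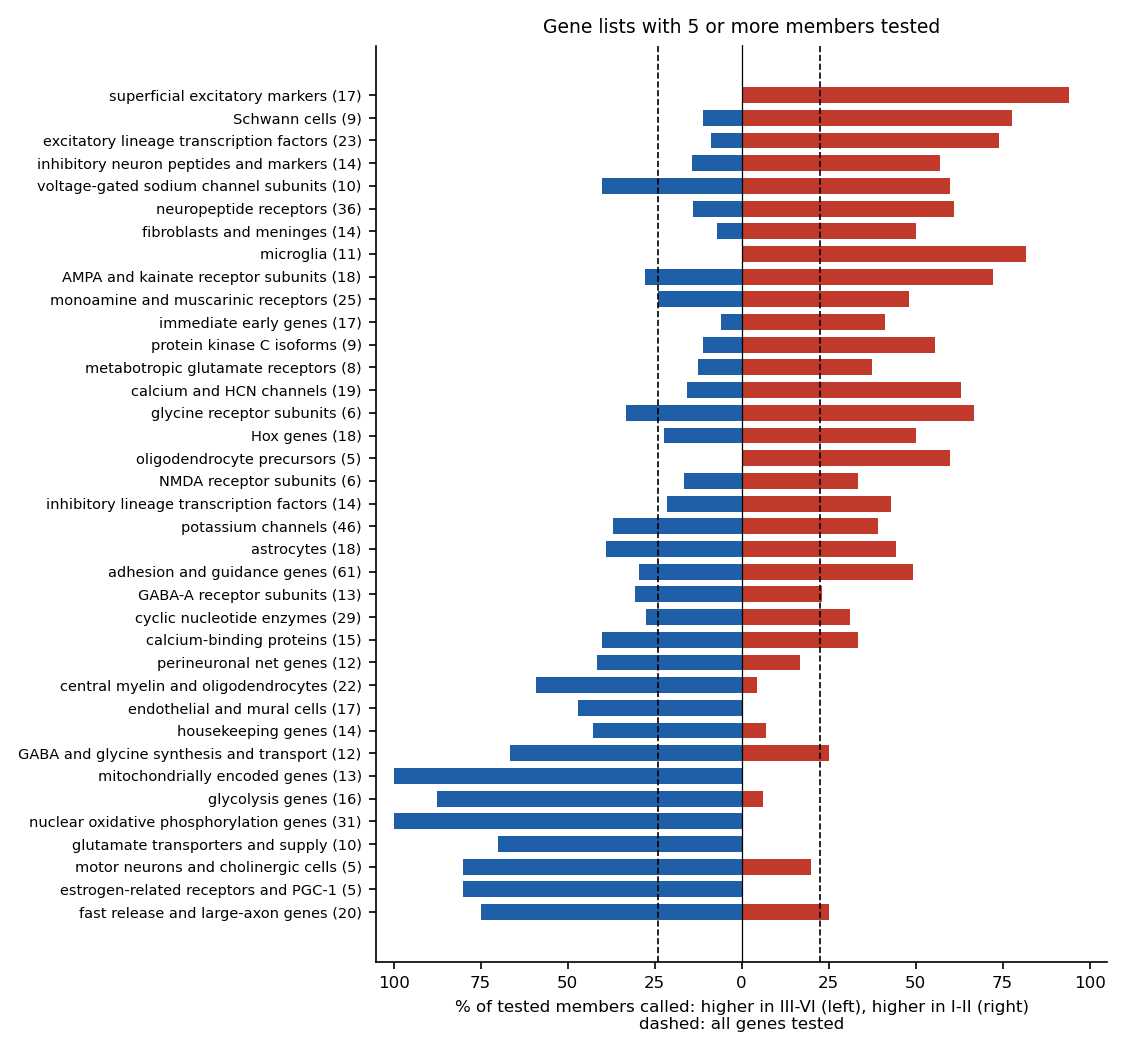
Percent of the tested members of each gene list (number tested in brackets, lists with at least 5) called higher in laminae III-VI (blue, to the left) or in laminae I-II (red, to the right), ordered by the median log2 difference, with the shares over all genes (24.0% and 22.6%) as dashed lines. Superficial excitatory markers stand at the top with 16 of 17, and all members of both mitochondrial lists are on the deep side.

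The rats injected with CNO, the ligand of the transgenic receptor, offer the same cut in other animals. The layer comparison there called 7441 of 13300 genes tested (55.9%), and 73.3% of these were called in the same direction in the Saline rats. Of the 6111 genes called in Saline rats and tested in CNO rats, 5456 (89.3%) were called in the same direction and 3 in the opposite direction. Of the 2-fold differences tested in both, 878 of 916 (95.9%) were called in the same direction. The layer difference itself differed between Saline and CNO rats in 59 of 13745 genes (0.429%, edgeR interaction, adjusted p under 0.05). Treatment and set of rats cannot be told apart in that comparison. Oxtr stood at a mean of 3.04 CPM in the superficial layer and 0.362 CPM in the deep layer of the CNO rats (log2 difference 2.99), and the log2 difference of Ebf2 was 5.59 there.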

How the data were processed

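The authors used CLC Genomics Workbench to map paired-end reads of 12 libraries to the rat genome (rn6) and deposited raw counts for 32623 genes, with quantile-normalized values (24 further per-library columns, not used here) and columns of their own treatment test (p-values and fold changes, not used here). Only the raw counts of the 6 Saline libraries entered the layer comparison. Reads were counted per gene in stranded libraries, but the strand setting of the counting is not given in the sources used here, so overlapping genes on opposite strands are uncertain.

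The layers were compared with edgeR 4.0.16 in R 4.3.3 (quasi-likelihood test, TMM factors, filterByExpr with a minimum count of 10 and a minimum total of 15, Benjamini-Hochberg adjustment over all 13213 genes tested), with terms for rat and layer. The sign is laminae I-II minus laminae III-VI, errors are standard errors (SE), intervals are 95% intervals of the fitted difference, and CPM are TMM-scaled. The smallest p of an exact permutation test is 0.1 at 3 against 3 libraries. Gene lengths were not used, so levels are not compared between genes. The titles' numbers were taken as rats. Libraries of the same number deviated together (correlations 0.167, 0.140 and 0.206), and all other pairs were negative. Deviations were taken from the mean of the 3 libraries of a layer, which pushes the other pairs negative, so their sign adds nothing. Neither the labels nor the methods state that both layers came from the same rats, and these weak correlations do not settle it. Replicates correlated at 0.985 to 0.989 and none was a duplicate.

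The 40 gene lists (725 symbols, of which 708 were found and 622 tested) and the tests were chosen with earlier results of these data known. Named genes are the 12 largest differences per direction (no overlap, at least 5 CPM), the 6 largest CPM differences per direction, up to 6 members per list with the smallest p, 17 fixed genes and all tested members of the lists of bordering tissue. Other list members given with values, and the pairs of genes in the ratios, were picked after their values were seen. Some genes are not reported here. Promoters are from RefSeq (GRCr8), matched for 9677 of the tested genes by symbol or, where the symbol was absent, by Ensembl identifier. Gene positions are those of the deposited tables. Alternatives were DESeq2 1.42.0, limma-voom (limma 3.58.1), 3 other scalings, 2 other filters, no rat block, all 12 libraries and leaving out each rat. The layer fit was also run on simulated counts with few altered genes, the same spread for all genes and no rat effect. That setting is simpler than these data, so nothing is drawn from it here. Tables and figures were made with Python 3.11.15.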

Additional observations from a re-analysis of the deposited data

Results flagged for a closer look

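For 22 of the named genes the layer difference itself differed between the Saline rats and the CNO rats (edgeR interaction over all 12 libraries, adjusted p under 0.05). Treatment, rat and dissection cannot be told apart here. The values below are the log2 layer difference in Saline rats minus that in CNO rats.

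Genes of bordering tissue form the first group. Markers of Schwann cells had the larger superficial excess in Saline rats, by 2.61 for Pmp2, 1.86 for Prx and 1.69 for Pmp22. The same held for meningeal and matrix genes, by 2.03 for Aldh1a2, 1.87 for Lum, 1.23 for Dcn and 1.21 for Col1a1. In Saline rats Aldh1a2 had a mean of 15.9 CPM in the superficial layer and 3.99 CPM in the deep layer, and in CNO rats the means were 5.73 and 5.81 CPM. The smooth muscle gene Myh11 had the larger deep excess in Saline rats (-0.92).

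Neuronal genes differed in size and kept their layer in both sets of rats. Deep genes had a smaller deep excess in Saline rats, by 1.27 for Spp1, 0.62 for Nefm, 0.48 for Nefh, 0.41 for Nefl, 0.38 for Syt2 and 0.34 for Glra1. Superficial genes had a smaller superficial excess in Saline rats, with values of -0.85 for Hpcal4, -0.78 for Sst, -0.46 for Ebf3, -0.44 for Scn2a, -0.40 for Scn3b, -0.36 for Cacna1e and -0.32 for Gria2. The superficial excess of Sst, for example, was 2.77 in Saline rats and 3.55 in CNO rats.

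Hoxd10 stood alone, with a difference of 2.74. Its level was 33.2, 31.4 and 12.2 CPM in the superficial layer and 86.6 to 94.4 CPM in the deep layer of Saline rats, and the means in CNO rats were 1.59 and 38.7 CPM.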

How the results depend on the processing

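The counts of genes called depended most on the tool and on the scaling. DESeq2 called 3668 genes (1664 higher in laminae I-II, 2004 higher in laminae III-VI), all called in the same direction by edgeR, and library totals called 4739 and 1983. Without replicate block, that is without the rat term, edgeR called 2544 and 2760, and 666 and 279 at 2-fold. Leaving out each rat in turn gave 2454 to 2758 and 2714 to 2957, with 666 to 849 and 294 to 313 at 2-fold. Of the 252 named genes, 252 kept direction and call with RLE factors, 251 with limma-voom, 242 without the rat term, and 233 each with DESeq2 and with library totals. The reversals were Gad2 with library totals (0.14), Calb2 without rat 3 (0.22) and Mgp without rat 3 (-0.14). Leaving out each rat gave -0.43 to 0.22 for Calb2 and -0.14 to 0.92 for Mgp. Depth limits the calls of genes with few counts, since 10 counts in a library of these depths are under 2 CPM.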

Other observations

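Long noncoding RNAs were uneven between the layers. Of 168 lincRNA genes tested, 45 (26.8%) were superficial and 13 (7.74%) deep, beside 22.6% and 24.4% of 12745 protein-coding genes. Genes listed as processed transcripts gave 23 and 12 of 50. These shares have no test here.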
